A study of Mus musculus with 2 samples.

Results

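Ccl3, Ccl4, Ccl5, Cxcl9, Cxcl10 and Cxcl16 encode 6 chemokines that draw T cells and natural killer (NK) cells into inflamed tissue. They were taken by symbol from the count tables of both libraries, where they are 6 of 32287 features. Each of the 6 was detected in both libraries. In the cells sorted as GFPhi their unique molecular identifiers (UMIs) lay mostly in macrophages. In the cells sorted as GFPlo most Ccl5 UMIs lay in T and NK cells, and most Cxcl9, Cxcl10 and Cxcl16 UMIs lay in stromal cells.

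Chemokines are small secreted proteins that bind receptors on leukocytes and guide them along a gradient. Ccl3, Ccl4 and Ccl5 are CC chemokines, and Ccl3 and Ccl5 bind the receptor Ccr1; macrophages release them early in inflammation, and activated T and NK cells make Ccl5 in quantity. Cxcl9 and Cxcl10 bind Cxcr3, the receptor of activated T and NK cells, and are classical targets of interferon, which acts in part through Irf1; NF-kappaB signalling also induces Cxcl10. Cxcl16 is made as a membrane protein that holds cells bearing Cxcr6, and the proteases Adam10 and Adam17 release it from the surface. In the infarcted heart, macrophages are the most abundant immune cells of the healing phase, while lymphocytes are fewer.

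The mice carried p16-2A-CreER, in which a tamoxifen-dependent Cre is made wherever the p16 gene is active, together with R26-mTmG, a reporter that switches a cell and its descendants from a red to a green membrane protein. All of them underwent myocardial infarction (MI), were given tamoxifen by gavage on day 5 and were sampled on day 7. Non-cardiomyocyte cells of the infarct region were sorted into GFPhi, the cells with strong green signal, and GFPlo, the cells without it, which another label calls GFP-negative. Each fraction gave 1 droplet library, how many mice a library pools is not stated, and no library without MI or without tamoxifen was analysed here.

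With 1 library per fraction there is no replicate, so no difference below has a test or a replicate check. A level is a gene's counts per 1e6 UMIs (CPM), both summed over the cells of a group. Levels carry exact Poisson intervals, ratios of levels exact conditional intervals and shares of cells exact Clopper-Pearson intervals, all at 95%, and all cover counting error only. A gene was counted as higher or lower in a comparison when its ratio was at least 2 or at most 0.5 and it reached 10 CPM in 1 of the compared groups.

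Cxcl9 and Cxcl10 are neighbours on chromosome 5 and Ccl3, Ccl4 and Ccl5 lie together on chromosome 11 of the mouse genome. In the build GRCm38.p6 the gene of Cxcl9 (ENSMUSG00000029417) spans chr5:92321347-92328079 on the minus strand. That of Cxcl10 (ENSMUSG00000034855) spans chr5:92346638-92348889 on the minus strand, 18.6 kb away. Ccl3 (ENSMUSG00000000982) lies at chr11:83647844-83649355 on the minus strand, 13.2 kb from Ccl4 (ENSMUSG00000018930) at chr11:83662584-83664683 on the plus strand and 117 kb from Ccl5 (ENSMUSG00000035042) at chr11:83525778-83530518 on the minus strand. Cxcl16 (ENSMUSG00000018920) is farther off on the same chromosome, at chr11:70453983-70459984 on the minus strand.

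The promoter sequences of Cxcl9, Cxcl10 and Ccl3 are shown because the promoter set used here held no entry for the other members. They run from 250 bases before to 50 bases after the gene's start, 5′ to 3′ on the gene's own strand, as RefSeq gives them for GRCm38.p6; Ccl4, Ccl5 and Cxcl16 are named only. Capitals mark matches to the core of the interferon-stimulated response element, searched as GAAANNGAA on both strands, and to the kappaB consensus, the binding motif of NF-kappaB, on both strands.
Cxcl9, chr5:92328030-92328329, minus strand: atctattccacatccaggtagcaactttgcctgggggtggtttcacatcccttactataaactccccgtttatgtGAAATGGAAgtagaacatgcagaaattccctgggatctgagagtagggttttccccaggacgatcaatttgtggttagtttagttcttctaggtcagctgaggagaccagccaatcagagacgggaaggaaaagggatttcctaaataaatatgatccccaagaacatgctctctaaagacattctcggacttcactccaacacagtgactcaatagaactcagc
Cxcl10, chr5:92348840-92349139, minus strand: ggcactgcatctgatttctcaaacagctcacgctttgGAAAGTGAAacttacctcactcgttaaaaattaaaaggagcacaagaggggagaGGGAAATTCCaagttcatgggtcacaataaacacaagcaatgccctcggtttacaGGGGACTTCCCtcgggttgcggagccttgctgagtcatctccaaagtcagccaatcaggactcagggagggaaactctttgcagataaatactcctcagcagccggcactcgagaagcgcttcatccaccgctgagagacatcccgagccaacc
Ccl3, chr11:83649329-83649628, minus strand: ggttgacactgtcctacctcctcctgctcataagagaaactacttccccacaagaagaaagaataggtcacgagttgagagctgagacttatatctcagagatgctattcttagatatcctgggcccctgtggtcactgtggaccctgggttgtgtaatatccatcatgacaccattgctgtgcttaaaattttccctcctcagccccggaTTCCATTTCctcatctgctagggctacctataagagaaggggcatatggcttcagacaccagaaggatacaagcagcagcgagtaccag

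The response-element core was found in 3 of the 3 promoters, at -175 from the start in Cxcl9, at -213 in Cxcl10 and, on the opposite strand, at -39 in Ccl3. It also stands in 2812 of 32851 mouse promoters of the same length (8.56%). A kappaB match was found in 1 of the 3, Cxcl10, at -159 and at the overlapping positions -104 and -103, against 8.46% of all promoters. A match describes letters only, and these windows show nothing of binding.

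After leaving out cells with fewer than 300 genes, fewer than 500 UMIs or more than 20% mitochondrial UMIs, 10125 GFPhi cells and 11959 GFPlo cells remained, with median depths of 6899 and 7712 UMIs. Cells were placed in classes by UMIs of marker genes, none of which is a member. The macrophage gate held 7680 GFPhi cells (75.9%) and 51 GFPlo cells (0.426%); the stromal gates (fibroblast, mesothelial, mural, endothelial and lymphatic endothelial) held 1135 and 9612; the T and NK gates held 92 and 577; and 1135 and 1405 cells passed no gate. The 9 macrophage markers summed to 18400 CPM in the GFPhi macrophages and 11813 CPM in the 51 GFPlo macrophages, with no marker at 0 in either. The libraries share 92 barcodes among the kept cells. Doublets were not removed, and macrophage RNA in cells of other classes is given beside each result it touches.

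Summed over all cells, 5 of the 6 chemokines were counted as higher in GFPhi than in GFPlo, where 10.9% of the 9213 genes measured were counted as higher and the median gene stood at a log2 ratio of -0.27. Ccl4 reached 2448 CPM in GFPhi against 17.9 CPM in GFPlo, a ratio of 137 (130–143), and Ccl3 509 against 5.14 CPM, a ratio of 99.1 (91.0–108). Cxcl9 was 5.86-fold higher (5.02–6.88), Cxcl16 5.59-fold (5.44–5.74) and Cxcl10 2.63-fold (2.56–2.70). Ccl5 was close to even, at 57.1 CPM in GFPhi and 47.9 CPM in GFPlo, and its ratio of 1.19 (1.15–1.24) became 0.686 when each cell was given the same weight. These sums mix the makeup of a sorted fraction with the level per cell. GFPhi macrophages held 96.1% of that library's Ccl3 UMIs, 96.3% of Ccl4, 80.9% of Ccl5, 85.4% of Cxcl9, 84.1% of Cxcl10 and 89.0% of Cxcl16. In GFPlo, T and NK cells held 53.3% of the Ccl5 UMIs, and stromal cells held 97.4% of Cxcl9, 90.3% of Cxcl10 and 90.8% of Cxcl16.

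**Figure D1:**
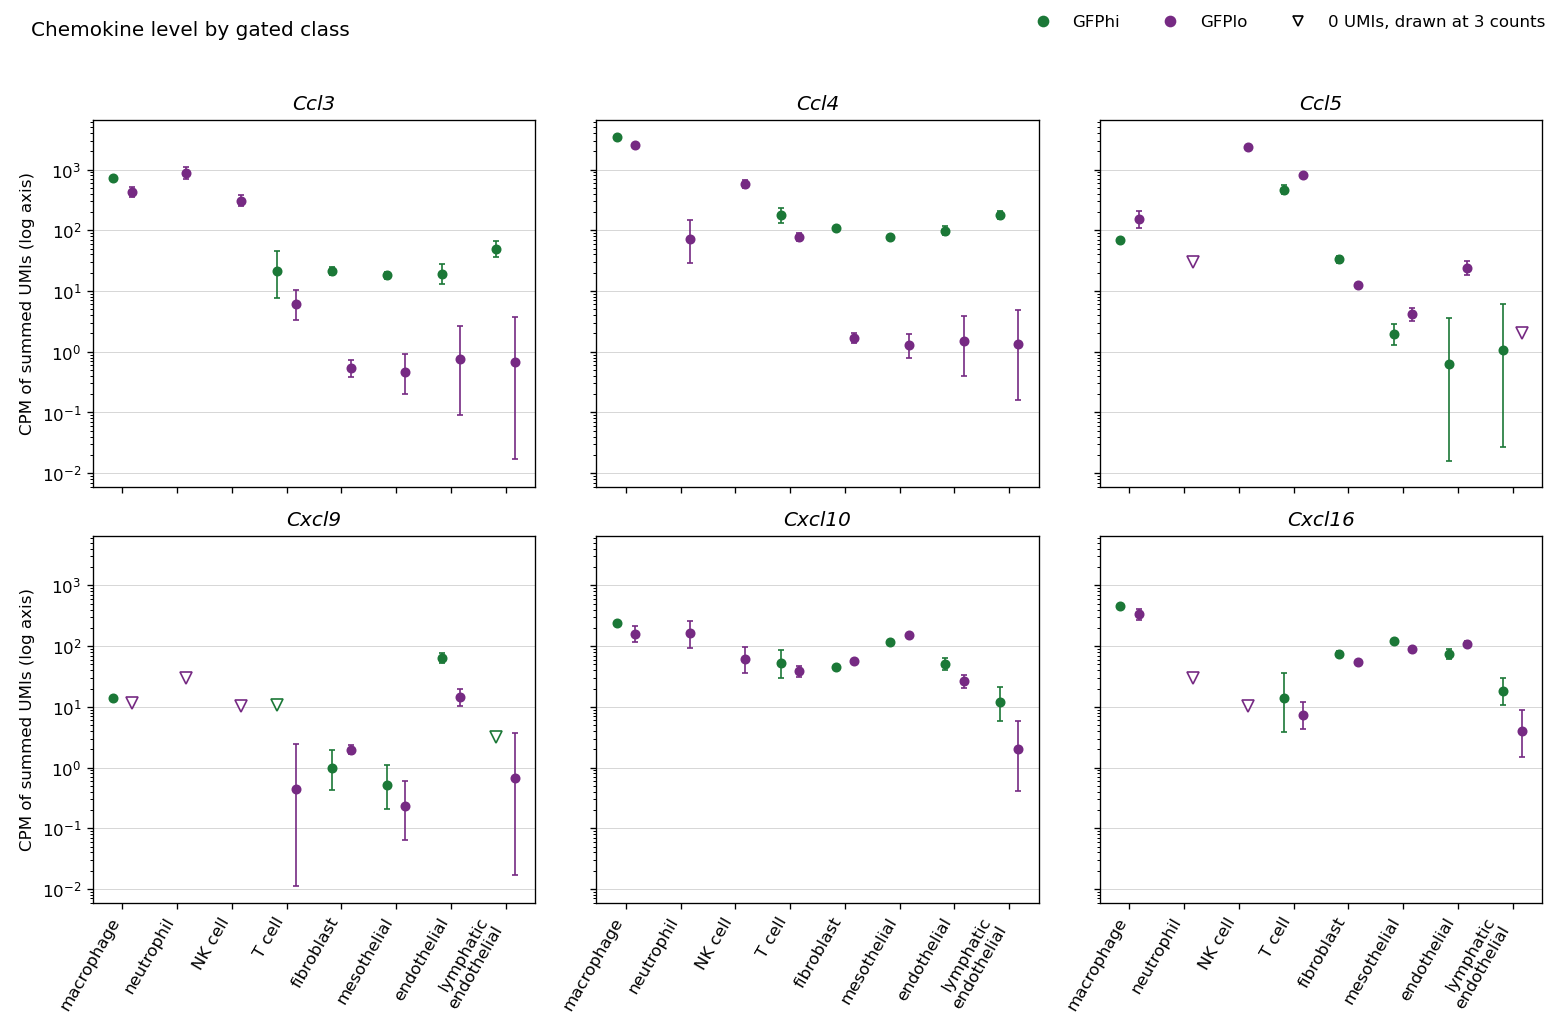
Level of each chemokine (CPM of summed UMIs, log axis) in 8 gated classes with at least 40 cells, GFPhi in green left of GFPlo in purple, 1 library each. Bars are exact 95% Poisson intervals and open triangles mark classes with 0 UMIs, drawn at the level of 3 counts. Ccl3 and Ccl4 in stromal classes lie more than 20-fold higher in GFPhi than in GFPlo, while the ratios of Cxcl10 and Cxcl16 in fibroblasts and mesothelial cells lie between 0.772 and 1.37.

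Ccl3 and Ccl4, CC chemokines of activated myeloid cells, were spread over most GFPhi macrophages. A Ccl3 UMI was found in 73.3% of these cells and a Ccl4 UMI in 90.3%. With every cell thinned to 1000 UMIs the shares were 38.6% (37.5–39.8) and 71.7% (70.7–72.8) of 7504 cells. Thinned GFPlo fibroblasts, which are not known as a source of either, had Ccl3 in 0.0135% and Ccl4 in 0.0947%; their median depth was 8524.5 UMIs, against 6948 in the GFPhi macrophages. In thinned GFPlo B cells, Ccl3 and Ccl4 were each found in 0 of 51 cells, which allows a share of up to 6.98%.

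In GFPhi, Ccl3 stood at 726 CPM (719–733) in macrophages and at 49.6 CPM (36.3–66.1) in lymphatic endothelial cells. It stood between 18.2 and 21.5 CPM in T cells, fibroblasts, endothelial and mesothelial cells, whose intervals overlap. In GFPlo the order was neutrophils at 887 CPM (712–1093), macrophages at 426 CPM (350–514), NK cells at 307 CPM (247–377), T cells at 6.11 CPM (3.34–10.2) and the stromal classes at 0.745 CPM or less. The intervals of GFPlo macrophages and NK cells overlap, and so do those of the stromal classes. The neutrophil value comes from 88 UMIs in 14 of 45 cells, and 2 cells hold at least 50% of them.

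Ccl4 followed a similar order, except that neutrophils were low. In GFPhi it stood at 3499 CPM (3485–3514) in macrophages, at 177 and 176 CPM in lymphatic endothelial cells and T cells, at 109 and 99.0 CPM in fibroblasts and endothelial cells and at 78.2 CPM (73.5–83.1) in mesothelial cells. In GFPlo it stood at 2496 CPM (2306–2698) in macrophages and 583 CPM (499–677) in NK cells. T cells and neutrophils followed at 77.2 and 70.6 CPM, with overlapping intervals, and the stromal classes lay between 1.28 and 1.68 CPM. No Ccl3 or Ccl4 UMI was found in 52 B cells and 122 mural cells of GFPlo, which for the mural cells allows up to 3.57 CPM.

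Ccl5, a ligand of Ccr1 and Ccr3 stored and released by cytotoxic lymphocytes, was highest in lymphocytes. In GFPhi it stood at 467 CPM (391–554) in T cells, 68.6 CPM (66.5–70.7) in macrophages and 33.1 CPM (29.3–37.3) in fibroblasts, and at 1.96 CPM or less in the other stromal classes. In GFPlo it stood at 2361 CPM (2188–2543) in NK cells, 801 CPM (765–839) in T cells, 152 CPM (108–208) in macrophages, 24.2 CPM (18.7–30.9) in endothelial cells, 12.3 CPM (11.5–13.2) in fibroblasts and 4.13 CPM (3.23–5.21) in mesothelial cells. The endothelial value rests on 1 of 536 cells, which held 48 of the 65 UMIs. Of the 89 GFPhi T cells, 2 held at least 50% of their 133 UMIs. Neutrophils and B cells of GFPlo had no Ccl5 UMI.

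Cxcl9, an interferon-induced Cxcr3 ligand, was sparse everywhere. In GFPhi it stood at 64.5 CPM (52.5–78.4) in endothelial cells, 13.8 CPM (12.9–14.7) in macrophages and below 1 CPM in fibroblasts and mesothelial cells. In GFPlo it stood at 14.5 CPM (10.3–19.9) in endothelial cells and 1.98 CPM (1.67–2.33) in fibroblasts, with 0 UMIs in macrophages, NK cells, neutrophils and B cells. The endothelial values rest on single cells, since 1 cell held 54.5% of 101 UMIs in GFPhi and 1 cell held 71.8% of 39 UMIs in GFPlo. The thinned share with Cxcl9 was 0.466% (0.325–0.648) in GFPhi macrophages and 0.222% (0.00561–1.23) in GFPhi mesothelial cells. The second interval, from 451 cells, is too wide for these shares to tell most macrophages from background. Without thinning, a Cxcl9 UMI was found in 114 of 7680 macrophages and 7 of 453 mesothelial cells, while the summed levels were 13.8 and 0.526 CPM.

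Cxcl10, the more abundant Cxcr3 ligand in both libraries, was found in immune and stromal classes alike. In GFPhi it stood at 239 CPM (235–243) in macrophages and 116 CPM (110–122) in mesothelial cells. T cells, endothelial cells and fibroblasts lay between 44.9 and 52.7 CPM with overlapping intervals, and lymphatic endothelial cells were lowest at 11.9 CPM (5.92–21.2). In GFPlo, neutrophils, macrophages and mesothelial cells lay at 161, 160 and 150 CPM with overlapping intervals; 1 of 45 neutrophils held 9 of their 16 UMIs, and 1 of 79 NK cells 13 of their 18. NK cells and fibroblasts followed at 61.3 and 57.6 CPM, T cells at 38.8 CPM (31.2–47.8), endothelial cells at 26.5 CPM (20.7–33.4), mural cells at 10.7 CPM (4.89–20.3) and lymphatic endothelial cells at 2.00 CPM (0.413–5.85).

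Cxcl16, the membrane-bound Cxcr6 ligand, was also shared between macrophages and stroma. In GFPhi it stood at 459 CPM (454–464) in macrophages, 122 CPM (116–128) in mesothelial cells, 75.5 and 74.1 CPM in fibroblasts and endothelial cells, whose intervals overlap, and 18.3 CPM (10.7–29.3) in lymphatic endothelial cells. In GFPlo it stood at 336 CPM (269–415) in macrophages, 108 CPM (95.6–121) in endothelial cells, 90.0 CPM (85.6–94.6) in mesothelial cells, 55.3 CPM (53.6–57.0) in fibroblasts and 4.0 CPM (1.47–8.71) in lymphatic endothelial cells. NK cells and neutrophils of GFPlo had 0 UMIs.

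Within the macrophage gate, which holds only 51 GFPlo cells, 4 of the 6 members stood 1.37-fold to 1.70-fold higher in GFPhi. Of the 6 members, 0 were counted as higher in GFPhi macrophages, against 6.83% of 7878 genes, and the median gene stood at a log2 ratio of -0.16. The ratios of GFPhi over GFPlo macrophages were 1.70 (1.41–2.08) for Ccl3, 1.40 (1.30–1.52) for Ccl4, 1.49 (1.10–2.08) for Cxcl10 and 1.37 (1.11–1.71) for Cxcl16. The directions for Ccl3 and Ccl4 were not stable: Ccl3 was 0.987 without cells holding a marker of a second lineage, which left 2576 GFPhi and 5 GFPlo cells, and Ccl4 was 0.780 with at most 10 UMIs counted per cell, an alternative chosen after seeing the data. Ccl5 was lower, at 68.6 CPM in GFPhi macrophages against 152 CPM in GFPlo macrophages, a ratio of 0.450 (0.329–0.634). The GFPlo value rests on 39 UMIs in 7 of 51 cells, and 1 of those cells held 18. The makeup of the gate also differed. The MHC class II gate described next held 1715 of the 7680 GFPhi and 27 of the 51 GFPlo macrophages, and the lipid-associated and Gdf15 gates held 1272 and 1118 GFPhi cells and 0 GFPlo cells. Among MHC class II-gated macrophages alone, Ccl5 stood the other way, at 159 CPM in GFPhi and 30.6 CPM in GFPlo, from 1960 and 4 UMIs, a ratio of 5.18 (2.02–19.0), and the ratios were 1.97 for Ccl3, 2.02 for Ccl4 and 2.68 for Cxcl10. Cxcl9 had 0 UMIs in GFPlo macrophages, where the exact interval for 0 UMIs reaches 14.4 CPM. The 13.8 CPM of GFPhi macrophages lies below that limit, so no difference in Cxcl9 can be read. The 7 fibroblast markers summed to 117 CPM in GFPhi macrophages and 680 CPM in GFPlo macrophages, and the part of such mixed RNA in these ratios was not tested.

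Macrophages of GFPhi were divided by 6 marker gates, which may overlap. The gates held 1715 cells for MHC class II genes, 898 for resident-macrophage genes, 1272 for lipid-associated genes, 491 for interferon-stimulated genes, 1118 for Gdf15 and Cxcr4 and 361 for the cell cycle. A gate cuts a continuous range: 414 macrophages lay between 0.5 and 1 times the MHC class II threshold, 441 for the resident, 1388 for the lipid-associated and 718 for the interferon threshold.

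The interferon gate separated the 6 chemokines most. It asks for at least 0.1% of a cell's UMIs and at least 3 genes among Isg15, Ifit1, Ifit2, Ifit3, Rsad2, Irf7, Oasl1 and Usp18. Of the 6 members, 3 were counted as higher in interferon-gated than in other macrophages (Ccl5, Cxcl9 and Cxcl10), against 2.81% of 7271 genes. Cxcl9 stood at 93.6 CPM in interferon-gated and 7.93 CPM in other macrophages, a ratio of 11.8 (10.3–13.5). Ccl5 stood at 438 and 41.5 CPM, a ratio of 10.6 (9.94–11.2). Cxcl10 stood at 884 and 192 CPM, a ratio of 4.60 (4.43–4.78).

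The other 3 differed less across the same gate. Ccl4 stood at 5429 CPM in interferon-gated and 3358 CPM in other macrophages, a ratio of 1.62 (1.59–1.64), Ccl3 had a ratio of 1.59 (1.55–1.64) and Cxcl16 one of 1.17 (1.12–1.22). After thinning to 1000 UMIs, Cxcl10 was found in 36.5% of interferon-gated and 13.6% of other macrophages, Ccl5 in 13% and 2.84%, Cxcl9 in 3.05% and 0.285%, and Cxcl16 in 39.3% and 35.2%. Part of the Ccl5 ratio comes from cells with many UMIs: counting at most 10 UMIs of a gene per cell, an alternative chosen after seeing the data, gave 4.96 for Ccl5 and 2.74 for Cxcl10, and left Cxcl9 at 10.1.

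**Figure D2:**
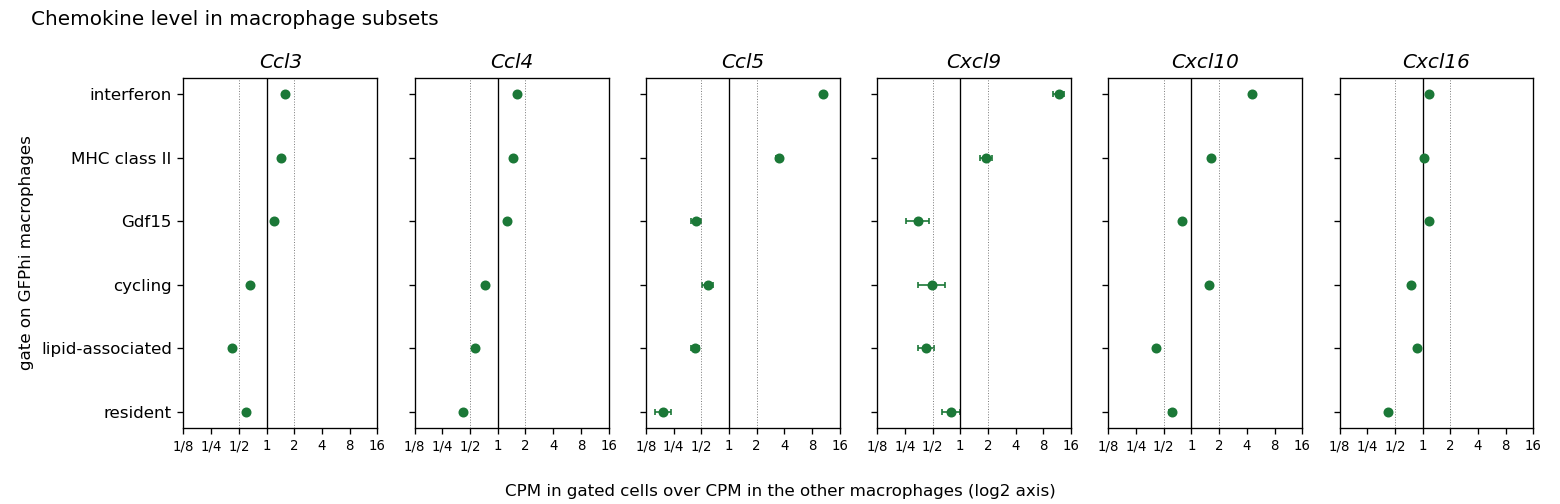
Ratio of each chemokine's level in gated over the other GFPhi macrophages (log2 axis) for 6 marker gates, with exact 95% intervals over counting error; the dotted lines mark ratios of 0.5 and 2. Cxcl9 and Ccl5 lie above 10 for the interferon gate, and 5 of the 6 members lie above 1 and below 2 for the MHC class II gate, the exception being Ccl5 at 3.46.

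Other genes of the interferon gamma response, a list that shares no gene with the gate, were higher in the same macrophages. Of 14 list genes measured, 11 were counted as higher and 0 as lower, with a median ratio of 3.49, while the median of all genes stood at a log2 ratio of -0.02. The immunoproteasome subunit Psmb9 was 2.35-fold higher (2.19–2.53). The immunoproteasome subunit Psmb8 had a ratio of 1.98 (1.87–2.10) and the transcription factor Irf1 1.66 (1.55–1.77). Of 16 NF-kappaB and early inflammatory genes 1 was counted as higher, the co-stimulatory receptor gene Cd40, named here after its value was seen, and their median ratio was 1.18. Of 15 dissociation-stress genes 0 were counted, with a median of 1.03.

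MHC class II-gated macrophages, which express the genes that present antigen to CD4 T cells, had a single member counted as higher, Ccl5, against 1.10% of 7173 genes. Ccl5 stood at 159 CPM in MHC class II-gated and 45.9 CPM in other macrophages, a ratio of 3.46 (3.25–3.67). The UMIs were concentrated, since 5 of 1715 cells held at least 50% of them and 1 cell held 422. Counting at most 10 UMIs per cell, the ratio was 2.20. Cxcl9 had a ratio of 1.92 (1.66–2.22), Cxcl10 1.65 (1.59–1.71), Ccl4 1.46 (1.44–1.47), Ccl3 1.42 (1.39–1.45) and Cxcl16 1.03 (1.00–1.06). Of 16 NF-kappaB and early inflammatory genes 1 was counted as higher: Il1b, the gene of interleukin 1 beta, at 2.53-fold (2.48–2.59). Of 13 interferon gamma response genes 2 were: Ciita, the regulator of MHC class II genes, and Socs1, an inhibitor of cytokine signalling, both named after their values were seen. The 6 monocyte markers summed to 199 CPM in MHC class II-gated macrophages and to 46.5 CPM in other macrophages, and their part in the Ccl5 ratio was not tested.

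The 2 gates overlap in 158 cells, and Ccl5 was highest there. A single cell held 422 of the 1006 Ccl5 UMIs of that overlap. The Ccl5 level was 830 CPM in macrophages of both gates, 279 CPM in the 333 with the interferon gate alone, 85.6 CPM in the 1557 with the MHC class II gate alone and 30.8 CPM in the 5632 with neither. Thinned shares ran in the same order, at 22.2%, 8.71%, 4.38% and 2.41%. Cxcl10 followed it, with thinned shares of 43.0%, 33.3%, 17.2% and 12.6%. Cxcl9 stood at 86.7 CPM (70.9–105) with both gates and 96.4 CPM (85.6–108) with the interferon gate alone. These intervals overlap, so the levels do not order the 2 groups. A single cell held 58 of the 105 Cxcl9 UMIs with both gates, and another held 105 of the 287 with the interferon gate alone. Cxcl9 was lower with the MHC class II gate alone, at 15.3 CPM, and with neither, at 6.14 CPM. Its thinned shares ran in the same order as those of Ccl5, but only 5 cells with both gates and 10 with the interferon gate alone held a UMI. Cxcl16 moved little, between 452 and 541 CPM over the 4 groups.

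Resident-gated macrophages, marked by Cd163, Folr2, Timd4, Lyve1, F13a1 and Cbr2, had 3 members counted as lower (Ccl4, Ccl5 and Cxcl16), against 2.85% of 7812 genes, while the median gene stood at a log2 ratio of 0.30. The count was 5 with median-of-ratios scaling and 6 with stricter gates. Ccl5 stood at 14.5 CPM in resident-gated and 76.0 CPM in other macrophages, a ratio of 0.191 (0.156–0.232). Ccl4 stood at 1571 and 3763 CPM, a ratio of 0.417 (0.410–0.425), and Cxcl16 at 210 and 493 CPM, a ratio of 0.425 (0.403–0.447). Their thinned shares were 1.01% and 3.84% for Ccl5, 46.5% and 75.2% for Ccl4, and 16% and 38.1% for Cxcl16, with resident-gated cells lower each time. The 4 erythrocyte markers summed to 381 CPM in resident-gated and 2.74 CPM in other macrophages and the 4 markers of type 2 dendritic cells to 127 and 19.97 CPM, with none at 0, and their part in these ratios was not tested.

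Ccl3 and Cxcl10 had ratios of 0.601 and 0.611 in the resident gate and Cxcl9 one of 0.797 (0.628–1.00). Tnf and Il1b, cytokine genes that NF-kappaB switches on, had ratios of 0.355 and 0.348. Il1rn, which encodes an antagonist of interleukin 1 receptors, was the third of 16 NF-kappaB and early inflammatory genes counted as lower. Of 14 genes of the interferon gamma response, 3 were counted as higher, against 11.0% of all genes (Gbp2, Gbp7 and Iigp1, GTPases of cell-intrinsic defence), and 2 as lower (Ciita and Cd274, the gene of the checkpoint ligand PD-L1). Il1rn and these 5 genes are named after their values were seen.

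Lipid-associated macrophages, marked by Mmp12, Gpnmb, Spp1, Fabp5 and Trem2, had 4 members counted as lower (Ccl3, Ccl5, Cxcl9 and Cxcl10), against 9.95% of 7239 genes, with the median gene at a log2 ratio of -0.22. The 4 ratios lay between 0.415 for Cxcl10 and 0.429 for Ccl5. Ccl4 stood at 2234 CPM in lipid-associated and 3916 CPM in other macrophages, a ratio of 0.571 (0.564–0.577), and Cxcl16 had a ratio of 0.871 (0.846–0.896). Genes of 3 lists also stood lower across this gate. The median ratio was 0.571 over 13 interferon gamma response genes, 0.614 over 16 NF-kappaB and early inflammatory genes and 0.583 over 15 dissociation-stress genes. The NF-kappaB genes counted as lower were Il1b, Nfkbiz, Nfkb1, Relb and Cd40, and the stress genes were Hspa1a, Hspa1b and Btg2, while Il1rn was 2.34-fold higher; of these Il1rn, Nfkbiz, Nfkb1, Relb, Cd40, Hspa1a, Hspa1b and Btg2 are named after their values were seen. Their part in the members' ratios was not tested. Gdf15-gated macrophages had Ccl3 at 1.21 and Ccl4 at 1.26 times the other macrophages, Ccl5 at 0.439 and Cxcl9 at 0.347. Cycling macrophages had ratios between 0.497 for Cxcl9 and 0.739 for Cxcl16, except for Cxcl10 at 1.56 (1.48–1.63).

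The chemokines also differed in how many macrophages held their UMIs. Of 7680 GFPhi macrophages, 7 held at least 50% of the Cxcl9 UMIs and 38 held at least 50% of the Ccl5 UMIs. The same share took 390 cells for Cxcl10, 880 for Ccl3, 1147 for Ccl4 and 1629 for Cxcl16. The 1% of cells richest in a gene, 77 cells, held 95.6% of Cxcl9, 60.8% of Ccl5, 22.2% of Cxcl10, 9.74% of Ccl3, 7.22% of Ccl4 and 4.68% of Cxcl16 UMIs. A single macrophage held 422 Ccl5 UMIs, another 105 Cxcl9 UMIs.

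**Figure D3:**
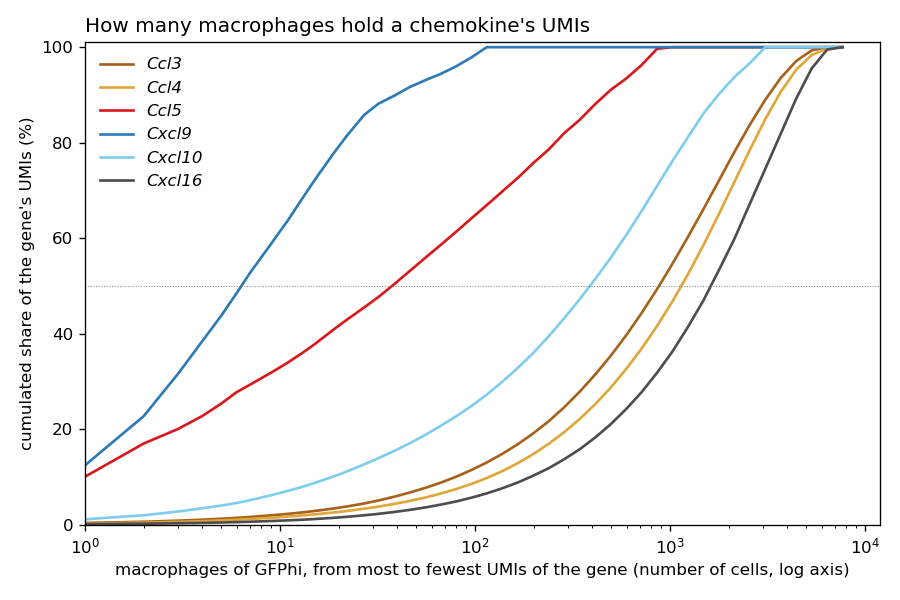
Cumulated share of each chemokine's UMIs (%) over the 7680 macrophages of GFPhi, ordered from the cell with the most UMIs of that gene (number of cells, log axis); the dotted line marks 50%. The Cxcl9 curve crosses the line at 7 cells and the Ccl5 curve at 38, while those of Ccl3, Ccl4 and Cxcl16 cross it between 880 and 1629 cells.

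Some members were found in the same macrophages more often than others. Over 7504 macrophages thinned to 1000 UMIs, Ccl4 was found in 87.4% of cells with a Ccl3 UMI and 61.9% of cells without. Cxcl10 was found in 35.7% of cells with Ccl5 and 14.4% of cells without, and Cxcl9 in 3.80% (10 of 263 cells) and 0.345%. Cxcl16 was found in 35.7% of cells with Ccl5 and 35.5% of cells without, so the 2 shares overlap in their intervals. T or NK marker UMIs were present in 5.03% of GFPhi macrophages, and those cells held 5.40% of the Ccl5 UMIs. The 7 NK markers summed to 0.212 CPM in these macrophages, with Ncr1, Klra4 and Eomes at 0, and the 8 T-cell markers to 8.70 CPM with none at 0.

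Levels of some members in macrophages also moved with genes that respond to tissue dissociation and with NF-kappaB and early inflammatory genes. The GFPhi macrophages were split into 4 groups of 1920 cells by the share of their UMIs in 15 dissociation-stress genes. Ccl3 stood at 296, 619, 934 and 1352 CPM and Ccl4 at 1549, 3247, 4639 and 5761 CPM, in order of increasing share. Cxcl10 followed the same order, at 127, 234, 295 and 368 CPM, and Cxcl16 less so, at 373, 469, 518 and 519 CPM. Ccl5 and Cxcl9 showed no such order, at 47.1, 65.8, 109 and 60.2 CPM and at 17.8, 13.5, 17.5 and 3.04 CPM. Median depth went the other way, at 9211.5, 7935, 6884.5 and 5845.5 UMIs, and the part of dissociation in these levels was not tested. Split the same way by 16 NF-kappaB and early inflammatory genes, the 4 groups had Ccl3 at 333, 550, 836 and 1288 CPM, Ccl4 at 1404, 2777, 4163 and 6143 CPM and Cxcl10 at 99.7, 201, 276 and 413 CPM.

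Among lymphocytes of GFPlo, Ccl5 was the member with a level above that of macrophages. T and NK cells, 577 in all, were counted as higher than the 51 GFPlo macrophages for 1 member of the 5 measured, against 27.4% of 9070 genes, and as lower for 4, against 19.0%, with the median gene at a log2 ratio of 0.30. Ccl5 stood at 1019 CPM in T and NK cells and 152 CPM in GFPlo macrophages, a ratio of 6.69 (4.88–9.43). Ratios were 0.0941 for Ccl3, 0.0551 for Ccl4, 0.260 for Cxcl10 and 0.0193 for Cxcl16.

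NK cells of GFPlo stood above T cells of GFPlo for the 3 CC chemokines, which were counted as higher out of 4 members measured, against 12.8% of 8877 genes. Ccl3 stood at 307 CPM in NK cells and 6.11 CPM in T cells, a ratio of 50.2 (28.4–95.5). Ccl4 stood at 583 and 77.2 CPM, a ratio of 7.54 (6.08–9.36), and Ccl5 at 2361 and 801 CPM, a ratio of 2.95 (2.70–3.22). For Ccl4, 2 of 79 NK cells held at least 50% of the UMIs. Thinned shares with Ccl5 were 62.0% (50.4–72.7) in NK cells and 25.2% (21.3–29.5) in T cells, at median depths of 3098 and 2981.5 UMIs. A UMI of Ccl5 was found in 0 of 45 neutrophils and 0 of 52 B cells of the same library.

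Within the T cells of GFPlo, 135 held Cd8a but no Cd4 UMI and 57 held Cd4 but no Cd8a UMI. Ccl5 stood at 1693 CPM in the Cd8a cells and 415 CPM in the Cd4 cells, a ratio of 4.08 (3.23–5.22), with thinned shares of 51.9% and 15.2%. Ccl4 stood at 154 CPM, from 105 UMIs, in the Cd8a cells and at 5.54 CPM, from 1 UMI, in the Cd4 cells, a ratio of 27.8 (4.88–1107). A missing Cd4 or Cd8a UMI does not show that a cell lacks the protein, and 271 T cells had neither.

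T cells of GFPhi, 89 cells, showed Ccl3 and Ccl4 counted as higher than in T cells of GFPlo, 2 of 5 members measured against 10.1% of 8824 genes. Ccl4 stood at 176 CPM in GFPhi and 77.2 CPM in GFPlo T cells, a ratio of 2.28 (1.63–3.13), and Ccl3 at 21.1 and 6.11 CPM, from 6 and 14 UMIs. Ccl5 stood at 467 and 801 CPM, a ratio of 0.583 (0.486–0.696). Its UMIs were found in 9 of the 89 GFPhi and 130 of the 490 GFPlo T cells. In GFPhi, 2 T cells held at least 50% of the 133 UMIs, and 1 of them held 50 UMIs. The makeup of these cells differed: 18 of 89 GFPhi and 135 of 490 GFPlo T cells held Cd8a but no Cd4 UMI, and 20 and 27 held both, and the part of this in the ratio was not tested. The complement genes C1qa, C1qb and C1qc, which macrophages make, stood in GFPhi T cells at 4.48% and in GFPlo T cells at 0.00969% of their summed level in GFPhi macrophages. Ccl4 stood at 5.02% and 2.21% of its own GFPhi macrophage level in the same cells. The part of macrophage RNA in these ratios was not tested.

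Stromal cells of GFPhi were counted as lower than GFPhi macrophages for 6 of the 6 members, against 13.6% of 9153 genes, with the median gene at a log2 ratio of 0.29. Ccl3 stood at 20.7 CPM in stromal cells and 726 CPM in macrophages, a ratio of 0.0285 (0.0260–0.0311), and Ccl4 had one of 0.0271 (0.0260–0.0282). Ccl5 followed at 0.181 (0.160–0.203), Cxcl16 at 0.216 (0.207–0.225), Cxcl10 at 0.346 (0.330–0.363) and Cxcl9 at 0.349 (0.285–0.424). The direction for Cxcl9 turned in shares of thinned cells, where the ratio was 1.15, and among 42 stromal and 2576 macrophage cells free of markers of a second lineage, where it was 2.04. Other chemokines of T cells ran the opposite way: 5 of 5 measured were higher in stromal cells, against 26.6% of all genes, among them Cxcl12, which retains leukocytes that bear Cxcr4, at 71.7 CPM in stromal cells and 0.734 CPM in macrophages. The lymphatic chemokine Ccl21a stood at 894 CPM in stromal cells and 6.54 CPM in macrophages, but it is itself a marker of the lymphatic endothelial gate.

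Ccl3 and Ccl4 in 3 of the GFPhi stromal classes stood near, and in part above, the level of macrophage RNA in the same cells. As a percentage of the GFPhi macrophage level, Ccl3 reached 2.96% in GFPhi fibroblasts, 2.51% in mesothelial cells and 2.64% in endothelial cells, and Ccl4 3.11%, 2.23% and 2.83%. The summed C1q genes reached 2.35%, 2.06% and 2.44% in these 3 classes, and Ms4a7, another macrophage gene, 2.36%, 1.98% and 2.05%. In fibroblasts the intervals of Ccl3 (2.54–3.44) and Ccl4 (2.91–3.32) lay above that of C1q (2.26–2.44). In mesothelial cells that of Ccl3 (2.20–2.84) lay above C1q (2.00–2.13), while Ccl4 overlapped it, and in endothelial cells both overlapped. In the same classes of GFPlo, Ccl3 reached 0.0752%, 0.0641% and 0.103%, Ccl4 0.0479%, 0.0366% and 0.0426% and C1q 0.0294%, 0.00345% and 0.0221%. The Ccl3 values there rest on 40, 8 and 2 UMIs. Lymphatic endothelial cells of GFPhi differed: Ccl3 reached 6.83% (5.00–9.11) and Ccl4 5.05% (4.31–5.89) there, against 3.34% (3.03–3.68) for C1q, while Cxcl10 and Cxcl16 stood at 4.95% (2.47–8.87) and 3.99% (2.33–6.39). In the other 3 classes Cxcl10 and Cxcl16 stood far above the C1q share in both libraries, at 16.1% or more in GFPhi and 11.1% or more in GFPlo.

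**Figure D4:**
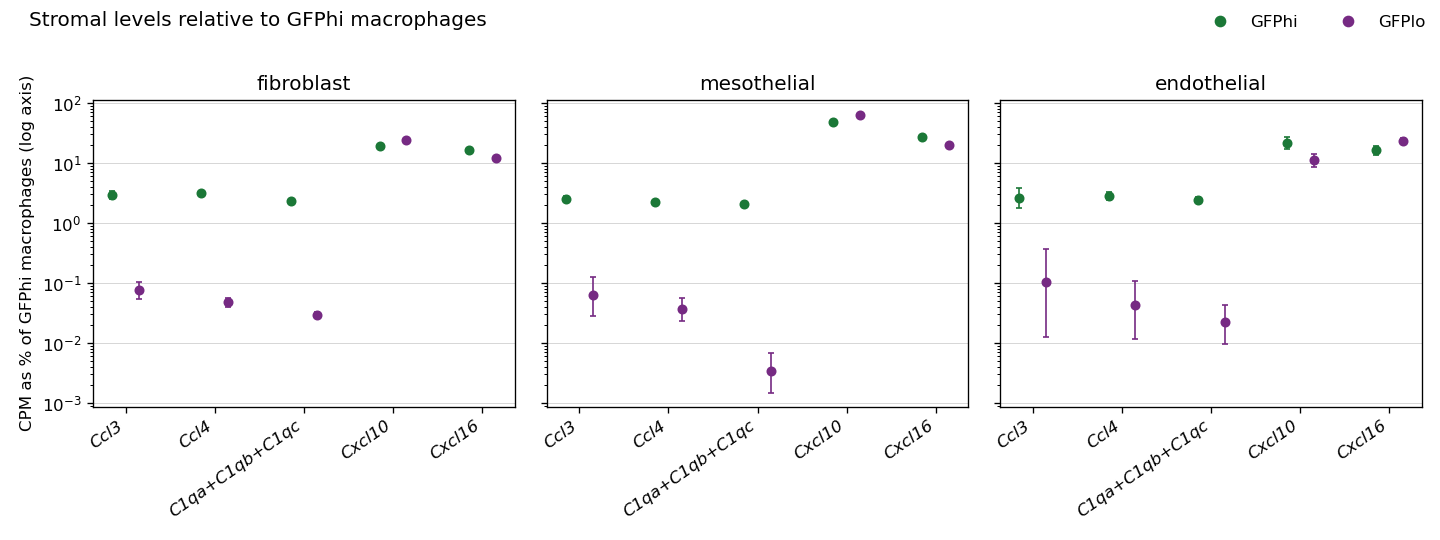
Level of Ccl3, Ccl4, the summed C1q genes, Cxcl10 and Cxcl16 in 3 stromal classes as a percentage of the level in GFPhi macrophages (log axis), GFPhi in green left of GFPlo in purple, with exact 95% intervals over counting error. In GFPhi, Ccl3, Ccl4 and C1q lie between 2.06% and 3.11%, while Cxcl10 and Cxcl16 lie at 16.1% or more.

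Between the fractions, stromal cells followed the same split. Over all stromal cells 2 of the 5 members measured were counted as higher in GFPhi, Ccl3 and Ccl4, against 5.19% of 8768 genes. In fibroblasts 3 of 5 were, Ccl3, Ccl4 and Ccl5, against 1.14% of 8324 genes. Ccl3 in fibroblasts stood at 21.5 CPM in GFPhi and 0.546 CPM in GFPlo, a ratio of 39.4 (27.8–57.1), and Ccl4 at 109 and 1.68 CPM, a ratio of 64.8 (53.6–78.9). C1q stood at 317 CPM in GFPhi and 3.97 CPM in GFPlo fibroblasts, and its part in these ratios was not tested. Ccl5 stood at 33.1 and 12.3 CPM, a ratio of 2.69 (2.34–3.08), but 5 of 411 GFPhi and 3 of 7592 GFPlo fibroblasts held at least 50% of the UMIs, and 1 GFPlo cell held 296 of 904. T or NK marker UMIs were present in 8.32% of all GFPlo stromal cells, which held 25.5% of the stromal Ccl5 and 46.0% of the Cxcl9 UMIs. In GFPhi 14.3% of stromal cells had such a marker and held 8.03% and 6.03%. The part of lymphocyte RNA in stromal levels was not tested.

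Cxcl10 and Cxcl16, the members with stromal levels well above the C1q share, differed less between the fractions. Cxcl10 in fibroblasts stood at 44.9 CPM in GFPhi and 57.6 CPM in GFPlo, a ratio of 0.779 (0.698–0.867), and in mesothelial cells at 116 and 150 CPM, a ratio of 0.772 (0.724–0.822). Cxcl16 in fibroblasts stood at 75.5 CPM in GFPhi and 55.3 CPM in GFPlo, a ratio of 1.37 (1.25–1.49), and in mesothelial cells at 122 and 90.0 CPM, a ratio of 1.36 (1.27–1.46). In endothelial cells Cxcl16 stood at 74.1 CPM in GFPhi and 108 CPM in GFPlo, a ratio of 0.688 (0.550–0.856). Median depths were 17521 and 8524.5 UMIs in GFPhi and GFPlo fibroblasts; the thinned shares with Cxcl16 were 8.17% (5.69–11.3) and 5.18% (4.69–5.71).

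The interferon gate, applied to stromal cells, picked out fibroblasts with more Ccl5 and Cxcl10 too. Of 4 members measured in GFPlo fibroblasts, 3 were counted as higher in the 300 interferon-gated than in the 7292 other cells (Ccl5, Cxcl9 and Cxcl10), against 2.04% of 8391 genes. Cxcl10 stood at 508 CPM in interferon-gated and 33.7 CPM in other GFPlo fibroblasts, a ratio of 15.1 (14.2–16), with thinned shares of 12.3% (8.83–16.6) and 1.81% (1.51–2.14). Ccl5 stood at 161 and 4.44 CPM, a ratio of 36.2 (31.5–41.6), but 2 of the 300 cells held at least 50% of the UMIs, and the thinned shares were 2.33% (0.943–4.75) and 0.367% (0.240–0.537). Cxcl9 stood at 12.4 and 1.42 CPM, a ratio of 8.73 (6.02–12.5), from 15 and 29 cells; thinned, it was found in 0 of 300 interferon-gated cells and in 0.0564% of other cells. Cxcl16 differed least, with a level of 60.7 and 55.0 CPM and a ratio of 1.10 (0.962–1.26).

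Fewer interferon-gated stromal cells were available elsewhere. In GFPhi fibroblasts, Ccl5 stood at 317 CPM in 43 interferon-gated and 4.31 CPM in 368 other cells, with Ccl5 UMIs in 12 cells of each group, and Cxcl10 at 121 and 37.2 CPM, a ratio of 3.25 (2.53–4.13). In mesothelial cells the ratio of interferon-gated over other cells was 3.98 (3.56–4.45) for Cxcl10 in GFPhi and 2.58 (2.33–2.84) in GFPlo, and 1.21 (1.04–1.42) and 1.33 (1.13–1.56) for Cxcl16. Ccl5 in mesothelial cells rested on few cells. In GFPhi it had 0 UMIs in 39 interferon-gated and 26 UMIs in 414 other cells, 22 of them in 1 cell. The 3 counts allowed for 0 UMIs are 1.11 times the 2.16 CPM of the other cells, so no direction can be read. In GFPlo it had 25 UMIs in 94 interferon-gated and 46 UMIs in 1034 other cells, a ratio of 5.78 (3.40–9.61), with 20 of the 25 in 1 cell. Endothelial cells had 2 interferon-gated cells in GFPhi and 4 in GFPlo, with 0 Ccl5 UMIs, against 1 and 65 UMIs in the other cells. The interferon gamma list was higher as a whole in the gated GFPlo fibroblasts, 13 of 13 genes measured with a median ratio of 5.98, among them Psmb8 at 3.44 (3.11–3.79) and Irf1 at 2.01 (1.80–2.25). Of 11 NF-kappaB and early inflammatory genes, 0 were counted.

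**Figure D5:**
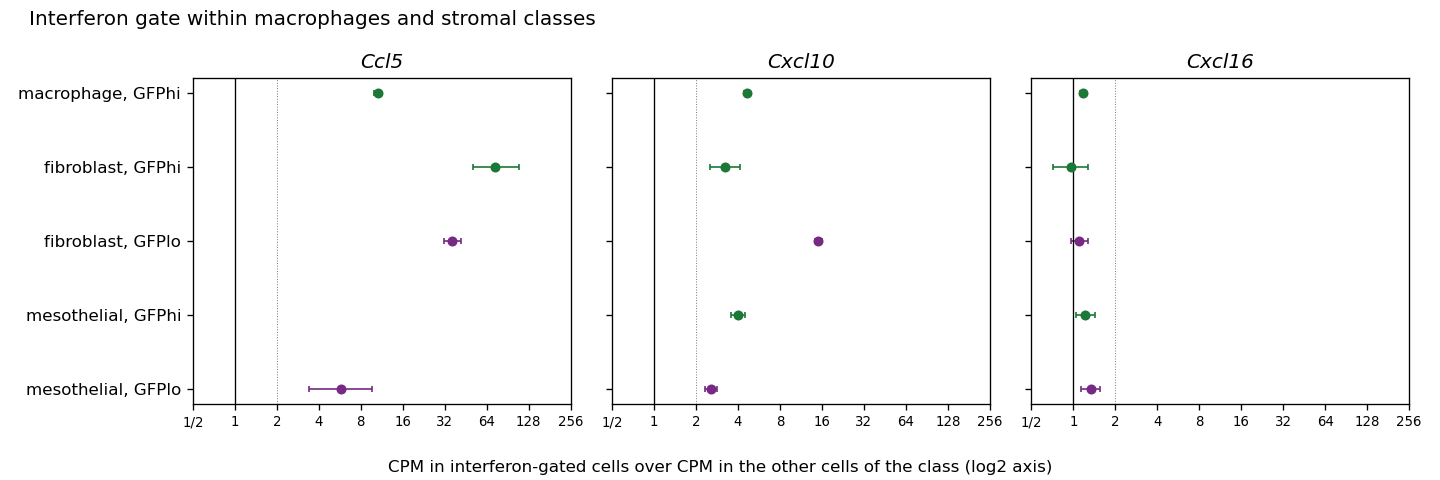
Ratio of the level of Ccl5, Cxcl10 and Cxcl16 in interferon-gated over the other cells of the same class (log2 axis), for macrophages of GFPhi and for fibroblasts and mesothelial cells of GFPhi (green) and GFPlo (purple), with exact 95% intervals over counting error; the dotted line marks a ratio of 2. Ccl5 and Cxcl10 lie above 2 wherever drawn, Cxcl16 lies between 0.963 and 1.33, and Ccl5 in GFPhi mesothelial cells, with 0 UMIs in the gated cells, is not drawn.

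Receptors of these chemokines were measured in the same cells. Ccr1 was highest in GFPlo neutrophils at 383 CPM (271–526), and stood at 95 CPM (88.1–102) in resident-gated macrophages of GFPhi. Ccr3 had 24 UMIs in all GFPhi macrophages. Cxcr3 stood at 57.9 CPM (33.7–92.7) in NK cells and 44.9 CPM (36.7–54.5) in T cells of GFPlo, and at 7.73 CPM (7.05–8.46) in GFPhi macrophages. Cxcr6 stood at 17.0 CPM (5.53–39.8) in NK cells and 99.9 CPM (87.4–114) in T cells of GFPlo, against 1 UMI in the GFPhi macrophages. Of these classes, T cells of GFPlo thus had the highest level of Cxcr6, the receptor for Cxcl16. Cxcr3 stood above its NK and T cell levels in type 1 dendritic cells, with 108 CPM (70.0–160) in 29 such cells of GFPlo. That interval overlaps the interval of NK cells.

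Genes that process or induce the chemokines differed by class as well. Ackr2, a scavenger that clears CC chemokines, stood at 125 CPM (103–150) in GFPhi and 96.7 CPM (81.6–114) in GFPlo lymphatic endothelial cells. Adam10, which sheds Cxcl16, stood at 323 CPM (288–362) and 263 CPM (237–290) in the same cells, where Cxcl16 itself was low, and at 53.1 CPM (51.3–54.9) in GFPhi macrophages. Adam17, the other sheddase, stood at 78.0 CPM (75.8–80.2) in those macrophages. Ifng, the gene of interferon gamma, stood at 116 CPM (80.2–162) in NK cells and 38.4 CPM (30.8–47.3) in T cells of GFPlo, and had 1 UMI in GFPhi macrophages. Tnf stood at 516 CPM (510–521) in GFPhi macrophages.

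By pattern over 20 groups of at least 50 cells, the genes most like Ccl3 and Ccl4 were general myeloid genes. This likeness is Pearson's r of log2(CPM + 1) among 6590 genes; the groups share libraries and some share cells, so it is a description. The 5 genes nearest to Ccl3 were Fcgr3, Fcer1g, Lair1, Lilrb4a and Tyrobp, from r = 0.979 to r = 0.953, and those nearest to Ccl4 were Lair1, Lilrb4a, Fcgr3, Fcer1g and Tnf, down to r = 0.956. Ccl3 and Ccl4 had r = 0.984 with each other. Ccl5 was nearest to Ipcef1 (r = 0.909), Padi2, Rnf166, Nabp1 and Atp8b4, and Cxcl10 to Ifi202b (r = 0.880), Tmem37, Snx10, Ifrd1 and Ccrl2. Cxcl16 was nearest to Nfkbiz (r = 0.923), Fuca1, Cops9, Akr1a1 and Hfe. Cxcl9 had no close match, with Entpd1 at r = 0.733 ahead of Znfx1, Sat1, Rsad2 and Mknk1, and Ccl5 and Cxcl9 had r = 0.0990 with each other over these groups.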

How the data were processed

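Gene-by-cell UMI counts from droplet single-cell RNA sequencing were used as deposited, 1 matrix for GFPhi (10430 barcodes, 91343549 UMIs) and 1 for GFPlo (12344 barcodes, 104855204 UMIs). The build mm10 is named in the submitters' processing notes; which tools counted UMIs and called cells was not given in the sources used here. Barcodes below 300 genes or 500 UMIs, or above 20% mitochondrial UMIs, were dropped: 305 from GFPhi and 385 from GFPlo. No doublet caller was run. Cells passing 1 of 12 lineage gates (a least number of markers and a least share of UMIs) were assigned to it; macrophages were then tested against 6 subset gates. Gate thresholds were set from marker UMIs alone.

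UMIs were summed per library and class and given as CPM; a class at 0 UMIs was allowed 3 counts. Shares of cells were computed unthinned and with each cell thinned to 1000 UMIs. With 1 library per fraction no test was run, and cells of a library are not replicates of a condition. Ratios of at least 2 or at most 0.5, in genes with at least 10 CPM in 1 of the compared groups, were counted. The sums, ratios and intervals were tested on data simulated as Poisson counts. That check does not cover UMIs clumped in a few cells. The members, gene lists and gates were chosen with earlier results of these data known. Named besides the members were receptors, Ackr2, Adam10, Adam17, Ifng, Irf1 and Tnf, up to 4 genes per list with the most UMIs, and the 5 genes most alike in pattern. Alternatives were other scalings, a UMI cap per cell, stricter and looser gates and cell filters, and leaving out cells with second-lineage markers. The minimum of 10 CPM was not varied. Cxcl11 was not analysed here, and some genes named by this rule are not reported here. Python 3.11.15, NumPy 2.4.6, SciPy 1.17.1, pandas 2.3.3 and matplotlib 3.10.9 were used.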

Additional observations from a re-analysis of the deposited data

Results flagged for a closer look

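For Ccl5, Cxcl10 and Cxcl16 the ratio of GFPhi over GFPlo lay above 1 in some classes and below 1 in others, counting ratios whose interval excludes 1, with at least 10 CPM in 1 library and at least 3 UMIs in each. With 1 library per fraction the difference between classes was not tested. Ccl5 had a ratio of 2.69 in fibroblasts, 0.450 in macrophages and 0.583 in T cells, where 2 of 89 GFPhi cells held at least 50% of 133 UMIs. Its ratio of 0.0264 in endothelial cells was not counted, since it rests on 1 UMI in GFPhi and 65 in GFPlo, 48 of them in 1 cell. Cxcl10 had a ratio of 1.49 in macrophages, 1.93 in endothelial cells and 5.93 in lymphatic endothelial cells, from 11 UMIs in GFPhi and 3 in GFPlo, but 0.779 in fibroblasts and 0.772 in mesothelial cells. Cxcl16 had a ratio of 1.37 in macrophages, 1.37 in fibroblasts, 1.36 in mesothelial cells and 4.58 in lymphatic endothelial cells, from 17 and 6 UMIs, but 0.688 in endothelial cells. In GFPhi lymphatic endothelial cells Cxcl10 and Cxcl16 stood at 4.95% (2.47–8.87) and 3.99% (2.33–6.39) of the GFPhi macrophage level. C1q stood at 3.34% (3.03–3.68) there and had 0 UMIs in GFPlo lymphatic endothelial cells. The part of macrophage RNA in the lymphatic ratios was not tested.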

How the results depend on the processing

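Counts of members past 2-fold were recomputed for 8 comparisons under 79 alternatives; 73 stayed within 1.5 times the reported count and 6 did not. The MHC class II count was 2 in place of 1 with median-of-ratios scaling, with the mean of per-cell CPM, without cells holding a marker of a second lineage and, chosen after seeing the data, without interferon-gated cells. The count of members lower in resident-gated macrophages was 5 in place of 3 with median-of-ratios scaling and 6 with stricter gates. The causes were not tested.

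Of 439 recomputed ratios of single members, 230 stayed within the reported interval and 6 turned direction. A turn was counted only where the reported interval excludes 1, and ratios with a group at 0 UMIs were left out. The ratio of Ccl5 over all cells was 0.686 with the mean of per-cell CPM, and that of Cxcl16 in the MHC class II gate was 0.993 with looser gates. Between GFPhi and GFPlo macrophages, Ccl3 was 0.987 without cells holding a marker of a second lineage, which left 2576 and 5 cells, and Ccl4 was 0.780 with at most 10 UMIs counted per cell. Cxcl9 in stromal cells over macrophages was 2.04 without cells holding a marker of a second lineage and 1.15 in thinned shares. The cap on UMIs and the thinned shares were chosen after seeing the data. No paired analysis was possible because each fraction is 1 library, and for the same reason no library could be left out. Depth limits Cxcl9, with 0 UMIs in GFPlo macrophages.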

Other observations

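Cells that passed no gate held a few cells rich in Ccl5. In GFPhi, 1 such cell held 394 of 523 Ccl5 UMIs, and in GFPlo 4 such cells held at least 50% of 908, with 200 in 1 cell. Cells with a T or NK marker held 14.8% of those GFPlo UMIs. Among T cells of GFPlo, the 10 that passed the interferon gate had Ccl5 at 4331 CPM, Ccl4 at 1513 CPM and Cxcl10 at 653 CPM. The 8 GFPlo cells that passed both the T and the NK gate had Ccl5 at 4158 CPM.

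The share of UMIs in genes of the interferon gamma response ordered the GFPhi macrophages differently from the dissociation-stress share given in the report. In 4 groups of increasing share, Cxcl10 stood at 144, 173, 231 and 446 CPM and Ccl5 at 27.8, 38.3, 53.3 and 174 CPM. Cxcl9 was low in the first 3 groups, at 2.63, 2.07 and 3.01 CPM, and stood at 55.5 CPM in the last. Cxcl16 hardly varied, at 470, 450, 456 and 463 CPM.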
